A study of Mus musculus with 39 samples.

Results

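The 10 genes described here code for the machinery of major histocompatibility complex (MHC) antigen presentation in the mouse sciatic nerve. They were picked by name from the 55573 genes in the files, with earlier results of these data known. The 7 class II genes are *Cd74*, *H2-Aa*, *H2-Ab1*, *H2-Eb1*, *H2-DMa*, *H2-DMb1* and *Ciita*, and the 3 class I genes are *H2-K1*, *H2-D1* and *B2m*. All 10 passed the filter on low counts, which left 18442 genes for testing. RNA was sequenced from the endoneurium, the inside of the nerve with its perineurium removed, of C57BL/6 mice of both sexes aged 2 to 4 months. In each mouse 1 sciatic nerve was crushed, and the nerves were collected 2 or 4 weeks post crush (wpc). The crushed nerve is called injured and the uncrushed nerve of the other side healthy. *Lepr*-cKO mice carried the genotype *Lepr* fl/fl::*Dhh*-Cre, in which Cre driven by *Dhh* in the Schwann cell lineage removes exon 1 of the leptin receptor gene from before birth, and *Lepr*-ctrl mice carried *Lepr* fl/fl without Cre, so both genotypes were homozygous for the floxed allele. A truncated receptor transcript is still made in *Lepr*-cKO mice. The 39 libraries came from 22 mice, of which 17 gave both nerves and 5 gave 1 nerve. At 2 wpc there were 5 healthy and 5 injured *Lepr*-ctrl nerves and 6 healthy and 5 injured *Lepr*-cKO nerves. At 4 wpc there were 5 healthy and 4 injured nerves of each genotype. The 2 and 4 wpc mice were different animals, so that time and cohort cannot be told apart, and every healthy nerve came from an operated mouse.

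MHC class II molecules present peptides from engulfed material to CD4+ T cells. Their α and β chains assemble around the invariant chain CD74. *H2-Aa* codes for an α chain and *H2-Ab1* and *H2-Eb1* for β chains, and an α partner of the *H2-Eb1* product was not examined here. H2-DM, a dimer of the *H2-DMa* and *H2-DMb1* products, later helps to exchange the last invariant chain fragment for antigenic peptide. CIITA, the product of *Ciita*, is the coactivator that switches on class II transcription. Class I molecules, made of a heavy chain such as H2-K1 or H2-D1 with β2-microglobulin (*B2m*), present peptides from inside the cell to CD8+ T cells and are found on most nucleated cells. Macrophages, dendritic cells and B cells are the classic carriers of class II. After nerve crush, macrophages enter the degenerating nerve and, together with Schwann cells, clear myelin debris before axons regrow.

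Most of these genes lie in the MHC region of chromosome 17, and their coordinates are given for GRCm38, the build of the files, from the GENCODE M21 annotation. On the plus strand are *H2-DMa* (chr17:34119541-34139101), *H2-DMb1* (chr17:34153072-34160230), *H2-Ab1* (chr17:34257689-34269419), *H2-Eb1* (chr17:34305867-34316674) and *H2-D1* (chr17:35262730-35267499). On the minus strand are *H2-K1* (chr17:33996017-34000347) and *H2-Aa* (chr17:34282744-34287823). *Ciita* lies on chromosome 16 (chr16:10480059-10528418) and *B2m* on chromosome 2 (chr2:122147686-122153083), both on the plus strand. *H2-DMa* overlaps *Brd2* and 3 other annotated genes, *H2-Eb1* overlaps *Gm20513*, *Ciita* overlaps *Dexi* and *B2m* overlaps *Patl2*, and whether the counting used strand is not given in the sources used here, so reads of overlapping genes cannot be told apart. *H2-K1* and *H2-D1* are close paralogs of each other and of other class I genes, and how reads that map to several places were treated is likewise not given, so the split of reads between them is uncertain.

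Class II genes are classically controlled from a short promoter stretch with an X box and a Y box, while class I promoters carry NF-κB and interferon response elements. For 6 genes the 150 bases before the RefSeq start are given, from the RefSeq promoters on GRCm38.p6, which held 7 of the 10 genes. Whether these letters bear on the changes after crush was not tested. The first start listed for a gene was used, and any other start was not searched for it. Capitals mark matches to 5 motifs that were searched on both strands: the Y box core GATTGG, the X1 box core AACNGATG, the X2 box TGACGTCA, the NF-κB core GGGGATTCC and the interferon response core GAAANNGAA, where N is any base. Reverse matches are marked as they read on the printed strand, and no matches overlapped in these genes. *H2-Aa* and *H2-Eb1* stand for the classical class II chains, *H2-DMb1* and *H2-DMa* for H2-DM, and *H2-K1* and *B2m* for class I.
*H2-Aa*, chr17:34287824-34287973, minus strand: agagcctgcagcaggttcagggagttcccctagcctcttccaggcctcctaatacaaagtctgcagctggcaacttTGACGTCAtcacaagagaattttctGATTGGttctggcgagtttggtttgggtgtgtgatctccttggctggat
*H2-Eb1*, chr17:34305717-34305866, plus strand: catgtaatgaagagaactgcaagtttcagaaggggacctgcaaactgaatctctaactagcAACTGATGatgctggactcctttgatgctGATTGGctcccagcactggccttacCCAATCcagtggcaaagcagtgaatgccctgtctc
*H2-DMb1*, chr17:34153041-34153190, plus strand: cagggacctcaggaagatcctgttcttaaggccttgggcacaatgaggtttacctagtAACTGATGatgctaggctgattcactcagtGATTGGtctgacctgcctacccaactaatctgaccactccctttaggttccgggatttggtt
*H2-DMa*, chr17:34122682-34122831, plus strand: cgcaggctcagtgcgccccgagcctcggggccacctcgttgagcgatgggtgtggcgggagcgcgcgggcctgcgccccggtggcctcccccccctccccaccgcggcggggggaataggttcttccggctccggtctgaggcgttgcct
*H2-K1*, chr17:34000348-34000497, minus strand: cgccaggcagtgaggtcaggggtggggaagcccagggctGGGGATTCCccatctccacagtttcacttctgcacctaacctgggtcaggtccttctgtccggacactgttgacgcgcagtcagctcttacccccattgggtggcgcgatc
*B2m*, chr2:122147537-122147686, plus strand: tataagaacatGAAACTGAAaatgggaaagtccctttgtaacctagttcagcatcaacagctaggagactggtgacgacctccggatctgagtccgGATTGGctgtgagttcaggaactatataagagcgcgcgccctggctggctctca
*H2-Eb1* and *H2-DMb1* both held an X1 match, starting 89 and 92 bases before the start, and a Y match, 60 and 62 bases before it. *H2-Eb1* also held a reverse Y match 35 bases before its start, which *H2-DMb1* lacked. *H2-Aa* held a Y match 49 and an X2 match 74 bases before its start. *H2-DMa* held none of the 5 letter strings in the 250 bases searched, which says only that these letters are not in this window. *H2-K1* held the NF-κB letters 111 bases before its start, and *H2-D1*, which is not shown, held them farther away. *H2-D1* also held a reverse Y match, nearer to its start than its NF-κB letters. *B2m* held a Y match 54 and the interferon response letters 139 bases before its start. Among all 32851 promoters, 14.6% held the Y letters, 1.98% the X1 letters, 1.55% the X2 letters, 0.213% the NF-κB letters and 7.13% the interferon response letters within the same 250 bases. GENCODE places the start of *H2-DMb1* inside the window printed here and that of *H2-DMa* upstream of it. The interferon response letters were searched in 1 form alone. Close forms, such as the stretch tttcacttc in the printed *H2-K1* window, were not marked. A match is a description of the letters, not of binding, and a missing match does not show that an element is absent.

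Library depth ranged from 10905806 to 45016322 assigned reads, with the lowest totals in injured nerves at 4 wpc. The nerve label was checked with 8 Schwann cell markers, which summed to 60745 to 82884 CPM (read counts scaled to the library's total with TMM factors) in healthy nerves and 9813 to 59757 CPM in injured ones. *Lepr* counts rose in injured nerves and did not separate the genotypes (log2 difference 0.39 at 2 wpc, adjusted p = 0.9389, and −0.54 at 4 wpc, adjusted p = 0.3619, edgeR). Since reads outside exon 1 still count, this does not check the deletion. Among the libraries, the injured nerve of *Lepr*-cKO mouse SLRKO2wpc126 (named as in the labels) carried 41722 CPM of 10 skeletal muscle markers, and the injured nerve of *Lepr*-cKO mouse SLRKO2wpc128 stood apart in class II genes, as given with the genotype comparison.

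Which antigen presentation genes changed in the injured nerve? The classical class II genes and *Ciita* rose in all 4 comparisons of injured with healthy nerves, while *H2-DMa* fell in all 4 and *H2-DMb1* in 3 of them, so that the class II genes did not move as one block. The class I heavy chains rose in 3 of them, by smaller folds, and *B2m* rose in none. With edgeR's quasi-likelihood test and a call at an adjusted p under 0.05 together with an absolute log2 fold change above 1, 9 of the 10 genes were called in *Lepr*-ctrl nerves at 2 wpc, 7 higher and 2 lower, against 34.1% of all genes tested (19.8% higher and 14.3% lower). The same numbers were called in *Lepr*-cKO nerves at 2 wpc (all genes 34.3%, with 20.9% higher and 13.4% lower) and in *Lepr*-ctrl nerves at 4 wpc (all genes 36%, with 20.1% higher and 15.9% lower). The *Lepr*-cKO nerves of the later time had 6 calls, 5 up and 1 down (all genes 27.6%, with 16.8% higher and 10.8% lower). In bulk tissue, more cells of a type and more RNA per cell cannot be told apart, here and in every result that follows.

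**Figure D1:**
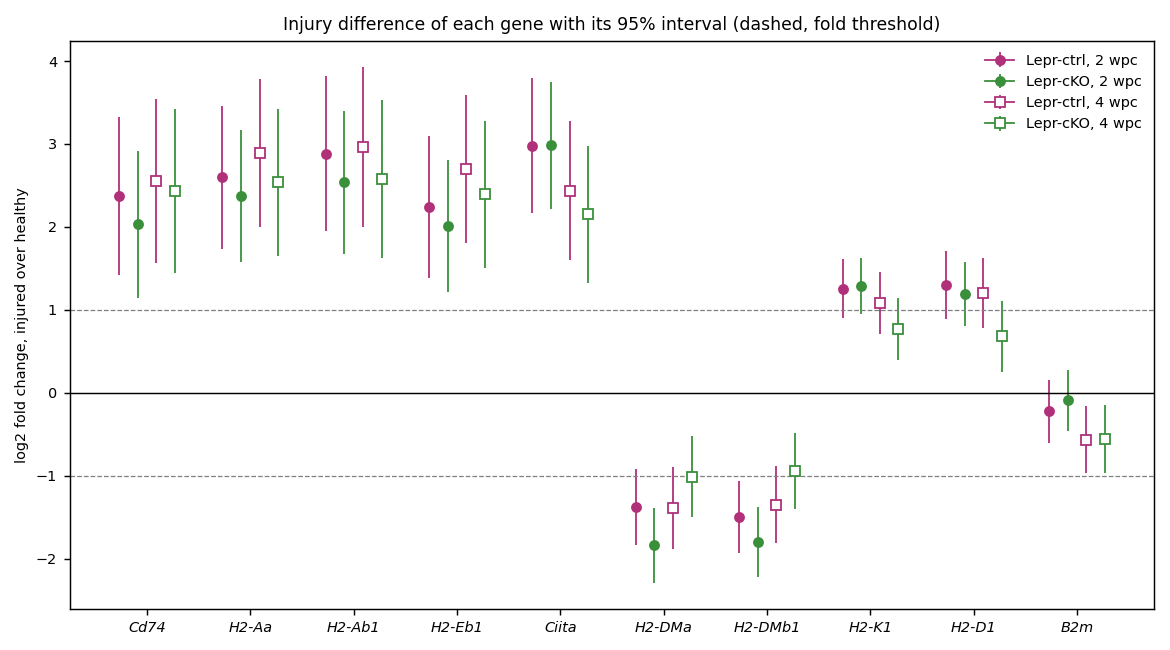
Log2 fold change of injured over healthy nerves (vertical axis) for the 10 genes (horizontal axis) in *Lepr*-ctrl (magenta) and *Lepr*-cKO (green) mice at 2 wpc (circles) and 4 wpc (open squares). Symbols are edgeR estimates, bars 95% confidence intervals and dashed lines the fold threshold. The classical class II genes and *Ciita* lie between 2.02 and 2.99, *H2-DMa* and *H2-DMb1* between −1.84 and −0.94, and *B2m* between −0.56 and −0.09.

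The invariant chain gene *Cd74* (chr18:60803848-60812652, plus strand, overlapping the annotated *Mir5107*) was the most abundant class II transcript per length, with a median of 80.4 RPKM (CPM per kilobase of exon) over 21 healthy nerves and 385 RPKM over 18 injured nerves. In healthy nerves its level stayed between 83.1 and 208.9 CPM, with group means of 154 ± 34.2 (SD, n = 5) and 146 ± 29.4 (n = 5) CPM in *Lepr*-ctrl mice and 130 ± 42.6 (n = 6) and 128.5 ± 37.8 (n = 5) CPM in *Lepr*-cKO mice of the 2 and 4 wpc cohorts. The injured *Lepr*-ctrl nerves at 2 wpc gave 203, 456, 800.5, 1014 and 1519 CPM. At 4 wpc they gave 584, 708, 855 and 1270 CPM. These groups spread widely, up to 7.48-fold between the lowest and the highest nerve at 2 wpc, and the lowest injured nerve at 2 wpc lay within the healthy range. The injured *Lepr*-cKO nerves gave 198, 202, 291, 321 and 1640.5 CPM at 2 wpc. At 4 wpc they gave 316, 561, 736 and 1169 CPM. At 4 wpc the injured and healthy nerves of either genotype did not overlap. By group mean the order was injured *Lepr*-ctrl at 4 wpc (854 ± 298 CPM, n = 4), injured *Lepr*-ctrl at 2 wpc (798 ± 509 CPM, n = 5), injured *Lepr*-cKO at 4 wpc (695 ± 359.7 CPM, n = 4), injured *Lepr*-cKO at 2 wpc (531 ± 623 CPM, n = 5) and then the healthy groups, and each group overlapped the next. The log2 fold change of injured over healthy was 2.37 (SE 0.47, adjusted p = 4.73e-05) in *Lepr*-ctrl and 2.03 (SE 0.44, adjusted p = 0.0001285) in *Lepr*-cKO nerves at 2 wpc. At 4 wpc it was 2.55 (SE 0.49, adjusted p = 2.929e-05) in *Lepr*-ctrl and 2.44 (SE 0.49, adjusted p = 7.559e-05) in *Lepr*-cKO nerves. The *Lepr*-cKO value at 2 wpc leans on mouse SLRKO2wpc128: without its injured nerve it was 0.99 (adjusted p = 0.0125), just below the fold threshold.

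The α and β chain genes followed *Cd74*. *H2-Aa* ranged from 37.8 to 100.02 CPM in healthy nerves (median 60.1) and from 119.5 to 884 CPM in injured nerves (median 361). *H2-Ab1* ranged from 27.9 to 64.7 CPM in healthy nerves and from 101 to 760 CPM in injured nerves. *H2-Eb1* ranged from 32.6 to 87.3 CPM in healthy nerves and from 84.6 to 630 CPM in injured nerves. Among these 3 genes the injured and healthy nerves overlapped for *H2-Eb1* alone, by 1 injured *Lepr*-cKO nerve at 2 wpc with 84.6 CPM against 87.3 CPM in the highest healthy nerve. In *Lepr*-ctrl nerves at 2 wpc the log2 fold change was 2.60 for *H2-Aa* (SE 0.42, adjusted p = 2.332e-06), 2.88 for *H2-Ab1* (SE 0.46, adjusted p = 1.689e-06) and 2.24 for *H2-Eb1* (SE 0.42, adjusted p = 2.159e-05). Across the other 3 comparisons it ran from 2.37 to 2.89 for *H2-Aa*, from 2.54 to 2.97 for *H2-Ab1* and from 2.02 to 2.70 for *H2-Eb1*, with every adjusted p at or below 3.42e-05. The 2 chains of the H2-A dimer kept their proportion: the *H2-Aa* to *H2-Ab1* ratio of RPKM was 0.765 to 1.05 in healthy nerves and 0.696 to 1.03 in injured nerves.

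*Ciita*, the class II coactivator, was a low transcript that rose in every comparison. It lay between 1.95 and 4.75 CPM in healthy nerves, on 50 or more reads per library. Injured *Lepr*-ctrl nerves held 9.91, 18.2, 25.6, 37.5 and 52.1 CPM at 2 wpc and 12.9, 14.0, 19.7 and 22.9 CPM at 4 wpc. Injured *Lepr*-cKO nerves held 6.87, 8.96, 10.3, 17.7 and 49.4 CPM at 2 wpc and 10.6, 15.4, 15.5 and 15.7 CPM at 4 wpc. Every injured nerve lay above every healthy nerve. The log2 fold change was 2.98 (SE 0.40, adjusted p = 7.183e-08) in *Lepr*-ctrl and 2.99 (SE 0.38, adjusted p = 2.049e-08) in *Lepr*-cKO nerves at 2 wpc. It was 2.44 (SE 0.41, adjusted p = 4.312e-06) and 2.15 (SE 0.41, adjusted p = 3.776e-05) at 4 wpc, and the change of the injury response between the times did not pass the test in either genotype (log2 −0.54, adjusted p = 0.5914, and −0.84, adjusted p = 0.5151).

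**Figure D2:**
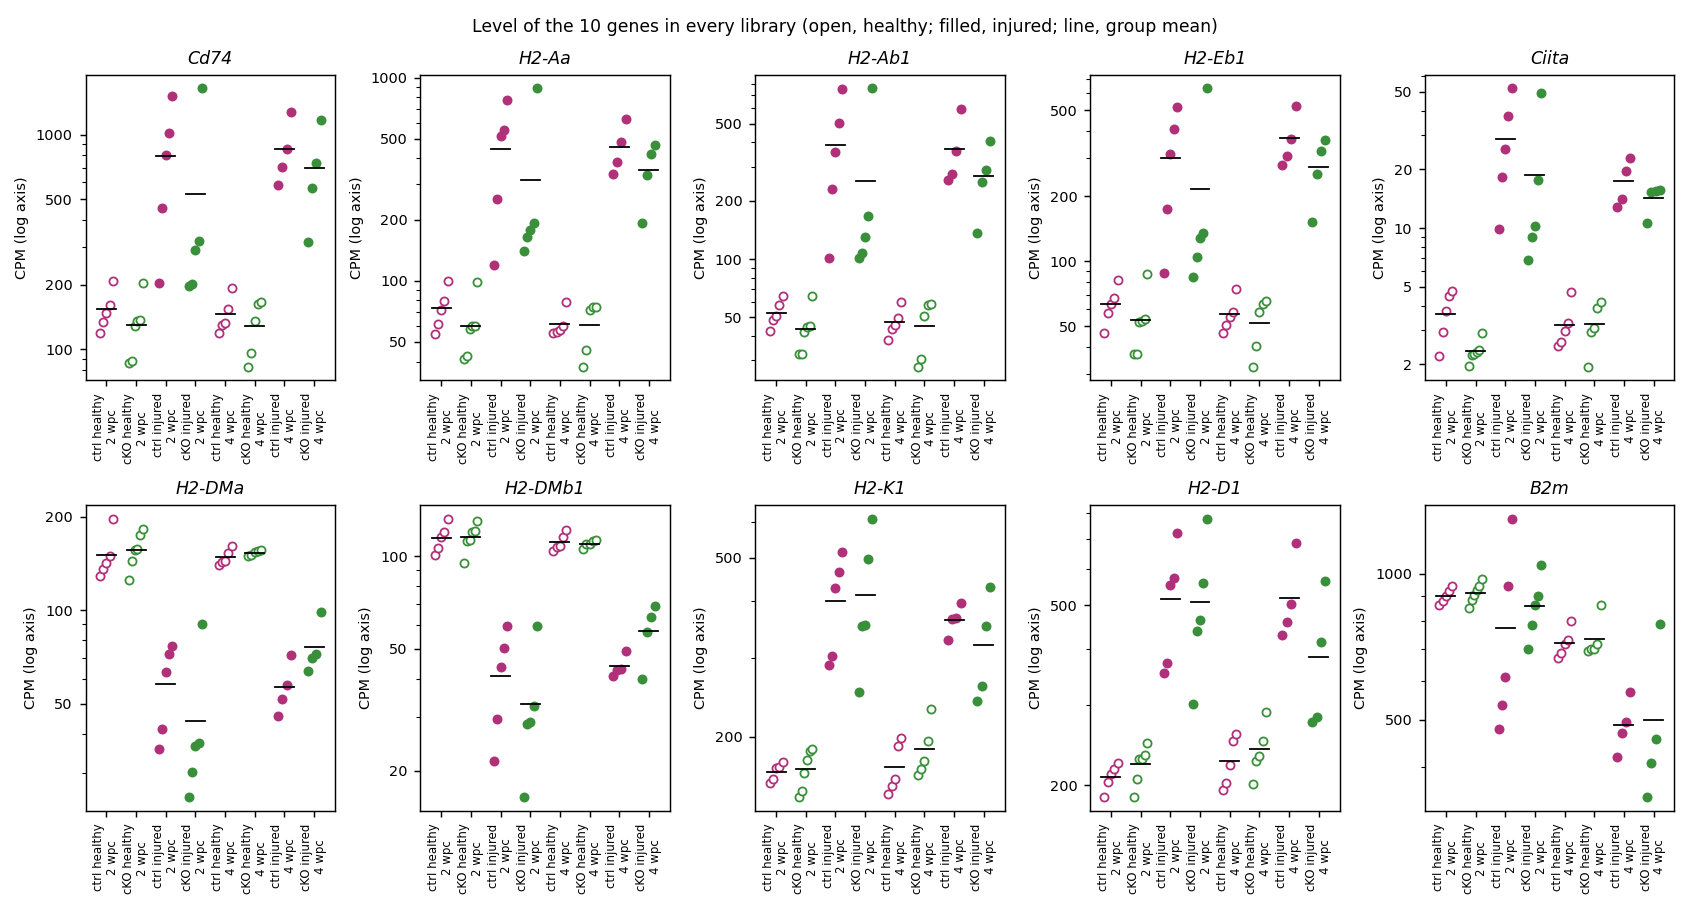
Level of each of the 10 genes in every library, in CPM on a log axis, for the 8 groups (*Lepr*-ctrl magenta, *Lepr*-cKO green, healthy open, injured filled), with a line at the group mean. Injured nerves sit above healthy ones for *Ciita* and mostly for the classical class II genes, and below them for *H2-DMa* and *H2-DMb1*, where the healthy nerves start at 124.9 and 95.2 CPM and the injured nerves end at 98.5 and 69.0 CPM.

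The H2-DM genes, whose product loads peptide onto the class II chains, went the other way. *H2-DMa* lay between 124.9 and 197 CPM in healthy nerves. The injured *Lepr*-ctrl nerves held 35.7, 41.4, 63.4, 72.3 and 76.7 CPM at 2 wpc and 45.7, 51.9, 57.3 and 71.7 CPM at 4 wpc. The injured *Lepr*-cKO nerves held 25.1, 30.1, 36.5, 37.2 and 90.6 CPM at 2 wpc and 63.5, 70.2, 72.4 and 98.5 CPM at 4 wpc. No injured nerve reached the lowest healthy nerve. *H2-DMa* fell by 1.38 on the log2 scale in *Lepr*-ctrl nerves at 2 wpc (SE 0.23, adjusted p = 2.493e-06) and by 1.84 in *Lepr*-cKO nerves (SE 0.22, adjusted p = 8.902e-09). At 4 wpc it fell by 1.39 in *Lepr*-ctrl nerves (SE 0.24, adjusted p = 8.604e-06). In *Lepr*-cKO nerves at 4 wpc it fell by 1.01 (SE 0.24, adjusted p = 0.0006132), a value so near the fold threshold that the call was lost when any of 3 injured libraries was left out.

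*H2-DMb1* kept the same course. It lay between 95.2 and 132.7 CPM in healthy nerves and between 16.5 and 69.0 CPM in injured nerves, again without overlap. It fell by 1.49 (SE 0.21, adjusted p = 2.148e-07) and 1.80 (SE 0.21, adjusted p = 3.738e-09) on the log2 scale in *Lepr*-ctrl and *Lepr*-cKO nerves at 2 wpc and by 1.35 (SE 0.23, adjusted p = 5.128e-06) in *Lepr*-ctrl nerves at 4 wpc. In *Lepr*-cKO nerves at 4 wpc the log2 difference was −0.94 (SE 0.23, adjusted p = 0.0006512), which passed the adjusted p but not the fold threshold.

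Set side by side per length within each library, H2-DM and the classical chains changed places. The *H2-DMb1* to *H2-Ab1* ratio of RPKM was 2.25 to 6.00 in healthy nerves (median 3.82) and 0.12 to 0.715 in injured nerves (median 0.241). The *H2-DMa* to *H2-Aa* ratio was 1.39 to 4.40 in healthy nerves (median 2.82) and 0.0885 to 0.415 in injured nerves (median 0.177). In every healthy nerve the H2-DM transcript was thus the more abundant of each pair per length, and in every injured nerve the less abundant. The 2 H2-DM genes kept their own proportion, with an *H2-DMa* to *H2-DMb1* ratio of 0.573 to 0.737 in healthy and 0.509 to 0.857 in injured nerves.

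**Figure D3:**
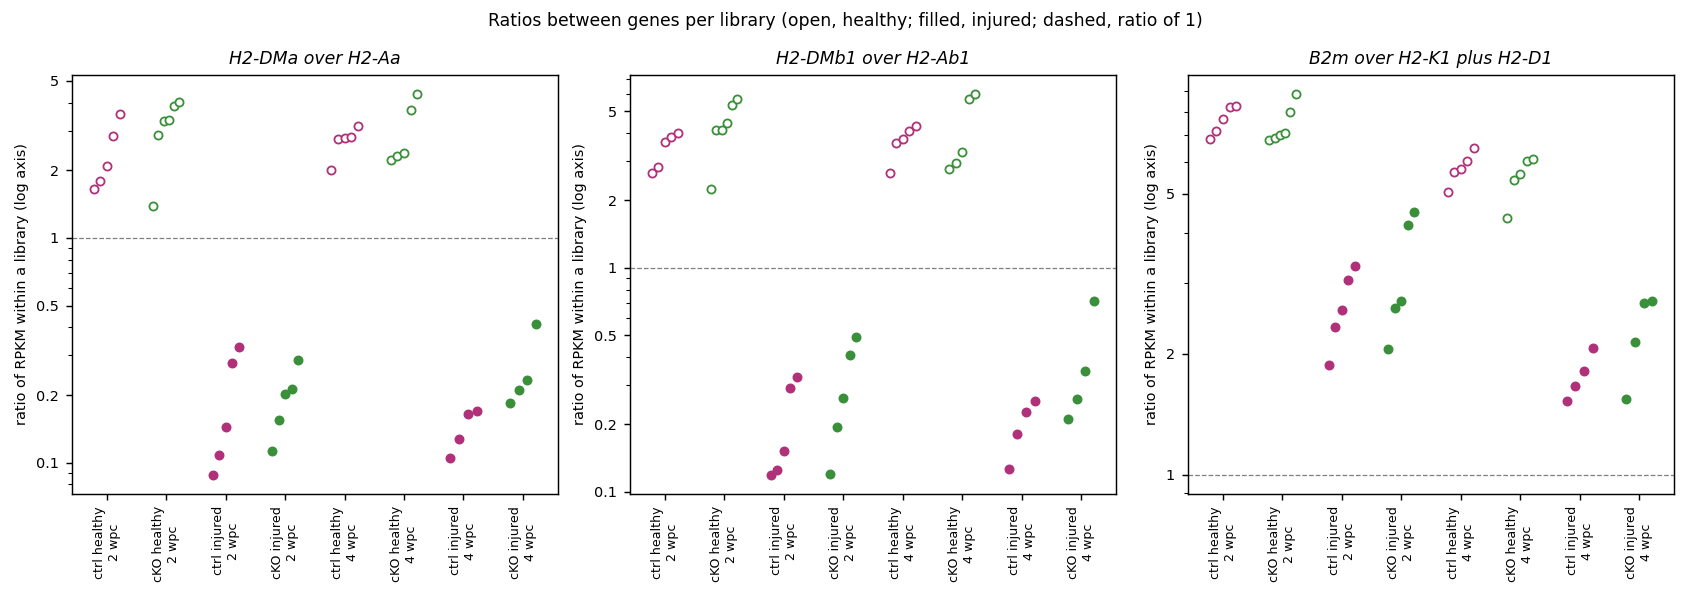
Ratios of RPKM within each library (log axis) for *H2-DMa* over *H2-Aa*, *H2-DMb1* over *H2-Ab1* and *B2m* over the sum of *H2-K1* and *H2-D1*, by group. All healthy libraries lie above all injured ones for both H2-DM ratios, with 1.39 as the lowest healthy and 0.415 as the highest injured *H2-DMa* ratio.

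The class I heavy chain genes rose in both genotypes at 2 wpc and in *Lepr*-ctrl nerves at 4 wpc. *H2-K1* lay between 147.02 and 231 CPM in healthy and between 239.9 and 611 CPM in injured nerves, and *H2-D1* between 189 and 289.9 CPM and between 275 and 776 CPM. *H2-K1* rose by 1.26 (SE 0.18, adjusted p = 1.65e-07) in *Lepr*-ctrl and 1.29 (SE 0.17, adjusted p = 3.542e-08) in *Lepr*-cKO nerves at 2 wpc, and by 1.09 (SE 0.18, adjusted p = 4.451e-06) in *Lepr*-ctrl nerves at 4 wpc, on the log2 scale. *H2-D1* rose by 1.30 (SE 0.20, adjusted p = 9.054e-07), 1.19 (SE 0.19, adjusted p = 1.444e-06) and 1.20 (SE 0.21, adjusted p = 7.046e-06) in the same comparisons. In *Lepr*-cKO nerves at 4 wpc both stayed under the fold threshold, with a log2 difference of 0.77 (SE 0.18, adjusted p = 0.0005888) for *H2-K1* and 0.68 (SE 0.21, adjusted p = 0.005934) for *H2-D1*. The responses of the genotypes at 4 wpc did not differ by the test of that difference (−0.31, adjusted p = 0.6666, and −0.52, adjusted p = 0.5195).

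*B2m*, the light chain shared by class I molecules, was the most abundant of the 10 genes per length (median 1003 RPKM in healthy and 689 RPKM in injured nerves), and it did not rise with the heavy chains. The injured *Lepr*-ctrl nerves held 480, 536, 614, 946 and 1298 CPM at 2 wpc and 419, 469.6, 495 and 572 CPM at 4 wpc. The injured *Lepr*-cKO nerves held 699, 785, 864, 899 and 1044 CPM at 2 wpc and 347, 407, 456 and 789 CPM at 4 wpc. Healthy nerves held 672 to 974 CPM. At 2 wpc the injured and healthy nerves overlapped in both genotypes, with a log2 difference of −0.22 (SE 0.19, adjusted p = 0.3084) in *Lepr*-ctrl and −0.09 (SE 0.18, adjusted p = 0.675) in *Lepr*-cKO. At 4 wpc it was −0.56 (SE 0.20, adjusted p = 0.01512) and −0.55 (SE 0.20, adjusted p = 0.01905), past the adjusted p but under the fold threshold. The ratio of *B2m* to the summed heavy chains, in RPKM, was 4.36 to 8.89 in healthy nerves and 1.52 to 4.51 in injured nerves. The lowest healthy value came from a *Lepr*-cKO nerve of the 4 wpc cohort and the highest injured value from a *Lepr*-cKO nerve at 2 wpc, and within each of the 4 comparisons the groups did not overlap.

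Over all genes tested, 19.8% and 20.9% were called higher in *Lepr*-ctrl and *Lepr*-cKO nerves at 2 wpc, and 20.1% and 16.8% at 4 wpc. Of 16 other genes of the class II pathway that were tested, 10 were called higher in both genotypes at 2 wpc and in *Lepr*-ctrl nerves at 4 wpc, 9 in *Lepr*-cKO nerves at 4 wpc, and 0 lower in any of the 4 comparisons. Their median log2 fold change was 1.79, 1.29, 1.58 and 1.24 in *Lepr*-ctrl and *Lepr*-cKO at 2 wpc and *Lepr*-ctrl and *Lepr*-cKO at 4 wpc, where the median of all genes tested was 0.08, 0.10, 0.02 and 0.06. With *H2-Eb2*, which had 0 reads in the healthy *Lepr*-ctrl nerves of the 4 wpc cohort, set at its bound, the third of these medians was 1.14. *Ctss*, the cathepsin that trims the invariant chain in antigen-presenting cells, went from 6.68 to 32.3 CPM in healthy nerves to 161 to 981 CPM in injured nerves. Its log2 fold change was 5.15 (SE 0.45), 4.23 (SE 0.40), 4.91 (SE 0.45) and 5.10 (SE 0.46) in the order above. *Ifi30*, a lysosomal thiol reductase that helps to unfold antigen, rose by 1.65, 1.34, 1.08 and 1.24. *H2-Oa*, a chain of the H2-DM inhibitor H2-O, rose from at most 0.134 CPM in healthy nerves to 0.61 to 9.38 CPM, a log2 fold change of 6.07 (SE 0.79), 6.32 (SE 0.78), 5.40 (SE 0.89) and 4.70 (SE 0.85) that rests on few healthy reads. Its partner *H2-Ob*, named here after its values were seen, rose by 4.12, 4.24, 2.67 and 2.98. *H2-DMb2*, a second H2-DM β chain gene, rose from 0.11 to 1.51 CPM in healthy nerves to 0.964 to 19.4 CPM in injured nerves, with a log2 fold change of 4.71 (SE 0.73), 4.24 (SE 0.66), 3.28 (SE 0.75) and 2.84 (SE 0.72). *H2-DMb1* and *H2-DMb2* are near-identical copies, so the split of reads between them is uncertain.

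Among 20 further genes of the class I pathway, 13, 12, 11 and 6 were called higher in the same order and 0 lower, with median log2 fold changes of 1.36, 1.27, 1.12 and 0.84. The shares of all genes called higher were 19.8%, 20.9%, 20.1% and 16.8%. *Nlrc5*, the class I coactivator related to CIITA, rose by 1.67, 1.75 and 1.23 in the first 3 comparisons and had a log2 difference of 1.00 (adjusted p = 0.0157) at the fold threshold in *Lepr*-cKO nerves at 4 wpc, where it was not called. *Psmb9*, an immunoproteasome subunit, rose by 2.18, 1.81, 1.83 and 1.43, and *Psmb8*, another subunit, by 1.62, 1.32 and 1.43, with 0.90 in the last comparison, where it was not called. *Tap1*, which carries peptides into the endoplasmic reticulum, rose by 1.64 and 1.39 at 2 wpc and was not called at 4 wpc (0.65 and 0.84). *Cd1d1*, a lipid-presenting relative of class I, rose by 3.54, 2.87, 3.97 and 2.82, the largest change of the list in each comparison. *H2-Q6*, a class I paralog whose reads may be shared, rose by 1.83, 2.04, 2.50 and 1.82. Of 7 genes for costimulation and adhesion, 5, 5, 3 and 3 were called higher and 0 lower. *Cd80* rose by 2.02, 1.94, 2.29 and 2.37, *Cd40* by 2.24, 2.79, 1.44 and 1.64, and *Icam1* by 2.12, 2.73, 2.96 and 2.20.

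The interferon list mixes genes of the interferon-γ pathway with genes of the type I response. Of 17 tested, 4, 3, 2 and 2 were called higher and 0, 0, 2 and 1 lower, where 19.8%, 20.9%, 20.1% and 16.8% of all genes were called higher, with median log2 fold changes of 0.53, 0.33, −0.09 and 0.02. *Ifng* itself did not pass the filter and had at most 4 reads in any library. *Irf1*, a transcription factor of the response, had 1.03, 0.87, 0.94 and 0.70 and was called in the first comparison alone. *Irf8*, a transcription factor of myeloid cells, rose by 3.38, 2.92, 3.98 and 3.76, and *Socs1*, a feedback inhibitor, by 2.89, 1.96, 1.07 and 1.54. *Ifit3* fell by 1.62 in *Lepr*-ctrl nerves at 4 wpc, and *Ifit1* fell by 1.18 there and by 1.22 in *Lepr*-cKO nerves.

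Markers of several cell types were called in the same comparisons. In these, 19.8%, 20.9%, 20.1% and 16.8% of all genes tested were called higher and 14.3%, 13.4%, 15.9% and 10.8% lower. Of 12 macrophage markers, 9, 9, 11 and 10 were called higher and 1 lower in each comparison, and their summed level was 202 to 624 CPM in healthy and 537 to 2296 CPM in injured nerves. The marker called lower in *Lepr*-cKO nerves at 4 wpc was *Mertk* (log2 −1.18, adjusted p = 0.0001388, edgeR). *Mertk* held 32.1 to 380.7 CPM over the 39 libraries and is part of this sum. *Adgre1*, which codes for F4/80, rose by 2.43, 2.34, 3.20 and 2.85 and *Cd68*, a lysosomal marker, by 3.77, 3.02, 4.06 and 3.82. *Csf1r* rose by 1.27 and 1.28 at 4 wpc and had 0.61 and 0.40 at 2 wpc, where it was not called. Of 8 dendritic cell markers, 7, 7, 6 and 7 were called higher, and their sum was 27.1 to 37.7 CPM in healthy and 61.4 to 295 CPM in injured nerves. Of 8 T and NK cell markers, 8, 7, 8 and 7 were called higher, from a sum of 0.363 to 1.52 CPM to one of 5.18 to 25.8 CPM. Of the B cell markers, *Ms4a1*, *Pax5* and *Fcmr* did not pass the filter, with at most 10 reads in a library. Of 4 neutrophil markers tested, 4, 4, 3 and 3 were called higher, with median log2 fold changes of 3.10, 4.10, 3.02 and 2.86. Of 7 adipocyte markers, 6, 1, 6 and 1 were called higher and 1, 0, 0 and 0 lower, with medians of 7.43, 1.85, 7.23 and 1.99 where genes without healthy reads are set at their bound. Of 8 Schwann cell markers, 0 were called higher and 4, 5, 6 and 3 lower. The part of any of these cells in the class II and H2-DM results was not tested.

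How alike the genes were from nerve to nerve is described by Pearson's r of their deviations from the group mean of log2 CPM over the 39 libraries. The libraries share animals, and depth and composition enter every gene of a library. *Cd74*, *H2-Aa*, *H2-Ab1* and *H2-Eb1* had r of 0.978 to 0.991 with each other, and *Ciita* had 0.795 to 0.823 with these 4. For *Ciita* the likeness was seen in the 18 injured nerves (0.918 to 0.936) more than in the 21 healthy ones (0.205 to 0.33). *H2-DMa* and *H2-DMb1* had r of 0.892 with each other. With the 4 classical genes they had 0.652 to 0.821 in injured nerves but −0.358 to −0.1 in healthy nerves. Thus within the injured groups a nerve with more classical class II transcript also held more H2-DM transcript, although injured nerves as a whole held less. *H2-K1* and *H2-D1* had 0.914 with each other and 0.638 to 0.758 with the classical class II genes, and *B2m* had 0.48 to 0.522 with them. In injured nerves these values were 0.754 to 0.878 for the heavy chains and 0.534 to 0.565 for *B2m*, and in healthy nerves −0.0688 to 0.183 and 0.0991 to 0.182. The genes outside the list most like the mean of the 4 classical genes were *Plbd1* (0.897), *Ifi30* (0.894), *Selplg* (0.89), *Mgl2* (0.887), *Coro1a* (0.874), *Alox5ap* (0.863), *Nfam1* (0.856), *Wdfy4* (0.854), *Grk3* (0.836) and *Cytip* (0.819). The mean of the dendritic cell markers had r of 0.876 with the classical class II genes, that of the T and NK cell markers 0.626, that of the macrophage markers 0.528, that of the interferon genes 0.244 and that of the Schwann cell markers −0.307.

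**Figure D4:**
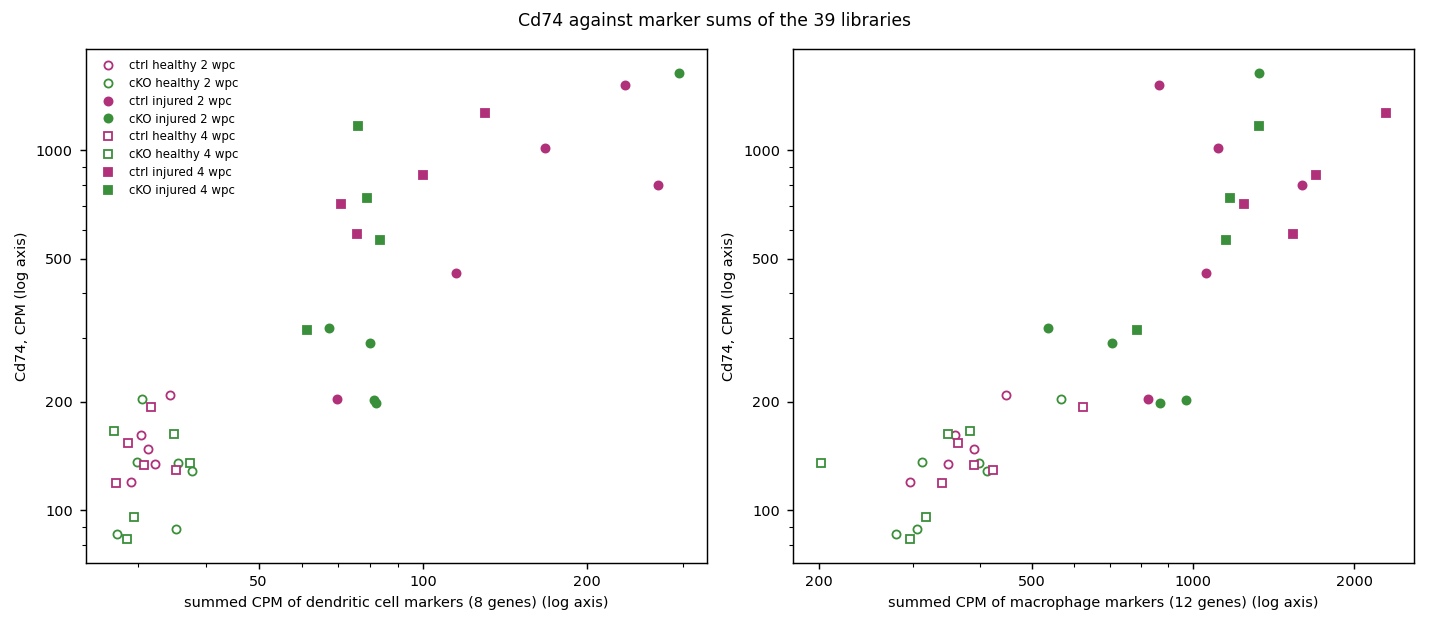
*Cd74* (CPM) against the summed CPM of 8 dendritic cell markers and of 12 macrophage markers in each of the 39 libraries (log axes; *Lepr*-ctrl magenta, *Lepr*-cKO green, healthy open, injured filled, circles 2 wpc, squares 4 wpc). Healthy nerves cluster at 83.1 to 208.9 CPM of *Cd74*, and the injured nerve of *Lepr*-cKO mouse SLRKO2wpc128, with 1640.5 CPM, has the highest dendritic marker sum.

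Did the loss of the Schwann cell leptin receptor change these genes? In injured nerves at 2 wpc, 0 of the 10 genes were called between *Lepr*-cKO and *Lepr*-ctrl mice, where 0.569% of all genes tested were called. In injured nerves at 4 wpc 0 were called as well, against 0.45% of all genes. In healthy nerves 0 were called in either cohort (all genes 0.00542% in each). At an unadjusted p under 0.05, 0 of the 10 genes passed in the injured nerves, where 1187 and 3667 of all genes did. The intervals were wide for class II: for *Cd74* at 2 wpc the log2 difference of *Lepr*-cKO minus *Lepr*-ctrl was −0.59 with a 95% confidence interval of −1.50 to 0.32 (adjusted p = 0.9421). The other classical class II genes and *Ciita* lay between −0.63 and −0.47 at 2 wpc, and all 5 lay between −0.46 and −0.28 at 4 wpc. *H2-DMa* had −0.40 (adjusted p = 0.8508) at 2 wpc and 0.43 at 4 wpc, and *H2-DMb1* had −0.30 and 0.39. The class I genes lay between −0.02 and 0.15 at 2 wpc, and at 4 wpc *H2-D1* had −0.43 (adjusted p = 0.2709). In the test of genotype by injury 0 of the 10 genes and 0% of all genes were called at either time, where 797 and 2013 genes had an unadjusted p under 0.05, and DESeq2 called 2 and 3 genes.

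A single library decided the class II comparison at 2 wpc. Mouse SLRKO2wpc128 held the highest injured level of *Cd74*, *H2-Aa*, *H2-Ab1* and *H2-Eb1* among all libraries, while the other 4 injured *Lepr*-cKO nerves at 2 wpc held 198 to 321 CPM of *Cd74* against 203 to 1519 CPM in *Lepr*-ctrl. Without its injured nerve, 5 genes were called lower in *Lepr*-cKO: *Cd74* (log2 −1.64, adjusted p = 0.01404), *H2-Aa* (−1.38, adjusted p = 0.02487), *H2-Ab1* (−1.61, adjusted p = 0.01109), *H2-Eb1* (−1.39, adjusted p = 0.01991) and *Ciita* (−1.38, adjusted p = 0.01404). In that fit 1.14% of all genes were called, with 0.19% lower. *H2-DMa* then had −0.83 (adjusted p = 0.005164), under the fold threshold. The test of genotype by injury still called 0 of the 10 genes without this library. When any other library was left out, including the muscle-rich nerve of mouse SLRKO2wpc126, 0 of the 10 genes were called. The nerve of mouse SLRKO2wpc128 also had a dendritic marker sum of 295 CPM, against 67.3 to 82.2 CPM in the other 4 nerves of its group and 69.7 to 269 CPM in the injured *Lepr*-ctrl nerves at 2 wpc, and a macrophage marker sum of 1329.9 CPM, against 537 to 971 CPM in the other 4 and 825 to 1598 CPM in the same *Lepr*-ctrl nerves. The part of these cells in the genotype difference was not tested.

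**Figure D5:**
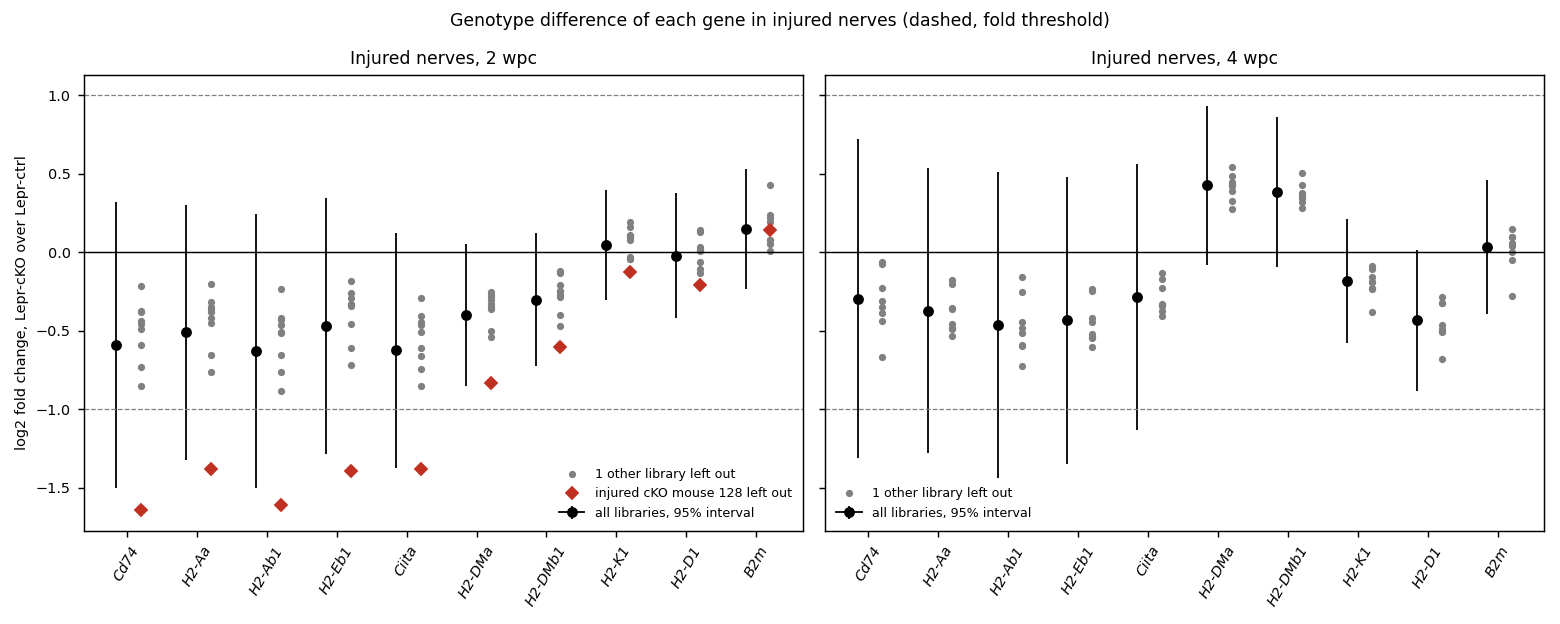
Log2 difference of *Lepr*-cKO minus *Lepr*-ctrl in injured nerves at 2 and 4 wpc for the 10 genes, with 95% confidence intervals, grey dots for the values with each library left out, and red diamonds for the value without the injured nerve of *Lepr*-cKO mouse SLRKO2wpc128. For the classical class II genes and *Ciita* the diamonds lie between −1.64 and −1.38, where the values with all libraries lie between −0.63 and −0.47.

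Between 2 and 4 wpc, 0 of the 10 genes were called in injured nerves of *Lepr*-ctrl mice, where 7.33% of all genes were, or of *Lepr*-cKO mice, where 5.29% were. In healthy nerves 0 were called in either genotype (all genes 0.174% and 0.119%). The classical class II genes stayed within a log2 difference of −0.07 to 0.39 in the injured nerves. *B2m* was lower at 4 wpc in injured nerves by the adjusted p alone, with −0.66 (SE 0.20, adjusted p = 0.01644) in *Lepr*-ctrl and −0.78 (SE 0.20, adjusted p = 0.007293) in *Lepr*-cKO. In healthy nerves *B2m* had −0.32 (adjusted p = 0.4116) and −0.31 (adjusted p = 0.5934). In injured *Lepr*-cKO nerves *H2-DMa* and *H2-DMb1* had 0.80 (SE 0.23, adjusted p = 0.0187) and 0.79 (SE 0.22, adjusted p = 0.01318), past the adjusted p and under the fold threshold. The same genes had −0.03 and 0.10 in injured *Lepr*-ctrl nerves, and the difference in time course between the genotypes was not tested. Without the injured nerve of mouse SLRKO2wpc128, 5 class II genes were called higher at 4 wpc in *Lepr*-cKO mice (all genes 5.48%): *Cd74* by 1.41, *H2-Aa* by 1.02, *H2-Eb1* by 1.23, *H2-DMa* by 1.19 and *H2-DMb1* by 1.06. For the change of the injury response between the times, 0 of the 10 genes were called in either genotype (all genes 4.42% and 1.42%). Without that nerve 2 were called in *Lepr*-cKO mice, but the share of all genes in that fit is not given here, so nothing is read from this count.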

How the data were processed

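Total RNA of sciatic nerve endoneuria was sequenced as 50-base single-end reads (TruSeq RNA Sample Prep Kit v2, Illumina HiSeq). The deposited values are raw counts per gene and library, which the authors made by demultiplexing with bcl2fastq 2.20.0.422, aligning to GRCm38 with STAR 2.5, allowing 2 mismatches, and counting with featureCounts 1.5.0-p1 (versions per the submitters' processing notes). Counts of 39 libraries in 8 groups were fitted together with edgeR 4.0.16 in R 4.3.3 (TMM normalization, filterByExpr at its defaults of 10 reads per library and 15 in total, quasi-likelihood F test, group means). Benjamini-Hochberg adjustment ran over all 18442 genes tested, and intervals of fold changes are at the 95% level. Calls needed an adjusted p under 0.05 and a log2 change beyond 1 in either direction, the thresholds of the study. CPM use TMM factors, RPKM the union of GENCODE M21 exons, and likeness log2 CPM with a prior count of 2. Totals of 10905806 to 45016322 reads set the precision.

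The 10 genes and the lists were chosen with earlier results of these data known. From the lists, up to 3 genes per direction and comparison with the largest change among called genes were named, besides *Nlrc5*, *Tap1*, *Psmb8*, *Irf1*, *Ifng*, *Ctss*, *Ifi30* and the first 3 macrophage markers; the rule named also *H2-Eb2* and *Pdcd1lg2*, for which no fold is given because all libraries of a healthy group had 0 reads, and *Gbp3*, with a log2 fold change of 1.01 and 1.00 at 2 wpc. *H2-Ea* was not analysed here, and some genes of the lists are not reported here. The animal number links both nerves of 17 mice, so same-numbered nerves are pairs: their deviations from group means over 5000 genes had a median r of 0.33, with 14 of 17 above 0.1. Alternatives were DESeq2 1.42.0, DESeq2 size factors, no filter, a prior count of 0.5, a sex term, the compared groups alone, the replicate block and each library left out. The scripts were tested on simulated data.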

Additional observations from a re-analysis of the deposited data

Results flagged for a closer look

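In 7 of the 80 combinations of gene and group checked, 1 nerve stood apart from the others of its group by Dixon's test, and chance marks about 1 in 20 such groups. The 4 classical class II genes share the first nerve. In the injured nerve of *Lepr*-cKO mouse SLRKO2wpc128 at 2 wpc, *Cd74* was highest with 1640.5 CPM, *H2-Aa* with 884.43 CPM, *H2-Ab1* with 759.78 CPM and *H2-Eb1* with 629.81 CPM, and the gap to the next nerve took 0.756 to 0.826 of the range on the log2 scale. *H2-Aa* was highest with 78.505 CPM in the healthy nerve of *Lepr*-ctrl mouse WT-170 in the 4 wpc cohort. *Ciita* was lowest with 10.607 CPM in the injured nerve of *Lepr*-cKO mouse KO-176 at 4 wpc. *B2m* was highest with 862.39 CPM in the healthy nerve of *Lepr*-cKO mouse KO-169 in the 4 wpc cohort.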

How the results depend on the processing

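Of 1270 fold changes of the 10 genes recomputed under the alternatives, 1251 kept their direction and their side of the thresholds, 6 lost a call, 13 gained one and 0 called values reversed, while 47 uncalled values changed sign. By the adjusted p alone, 10 genes passed for injury at 4 wpc in *Lepr*-ctrl and in *Lepr*-cKO nerves, where 63.6% and 55.3% of all genes tested did. For time in injured nerves, 1 passed in *Lepr*-ctrl mice (all genes 21.2%) and 3 in *Lepr*-cKO mice (all genes 14.8%). With 1 library left out in turn, the number of genes called for injury was 9 to 9 in *Lepr*-ctrl and 8 to 9 in *Lepr*-cKO at 2 wpc, and 9 to 9 in *Lepr*-ctrl and 5 to 7 in *Lepr*-cKO at 4 wpc. It was 0 to 5 for genotype in injured nerves at 2 wpc and for time in injured *Lepr*-cKO nerves, 0 to 2 for injury by time in *Lepr*-cKO, and 0 to 0 in the other comparisons. For injury, the shares of all genes called in these fits are not given here, so nothing is read from the injury ranges. Without the injured nerve of mouse KO-169, *B2m* was called for time in injured *Lepr*-cKO nerves (−1.12, adjusted p = 0.0002108). In *Lepr*-cKO nerves at 4 wpc, *H2-DMa* fell under the fold threshold without the injured nerve of mouse KO-175, KO-176 or KO-177, with a term for sex and with the compared groups alone, while *H2-DMb1* passed it without mouse KO-169 (−1.04) or KO-176 (−1.01). With the replicate block, no call of the 10 genes for injury changed, and the share of all genes called in that fit is not given here. The genotype comparisons were not fitted with this block, because genotype does not vary within a mouse. Over all genes, the genotype comparison of injured nerves called 105 genes at 2 wpc and 83 at 4 wpc with edgeR, 26 and 151 with DESeq2, 0 and 0 with the compared groups alone, 207 and 40 without a filter, and 1 to 210 and 6 to 702 with 1 library left out. With the compared groups alone, 779 and 105 genes were called for time in injured *Lepr*-ctrl and *Lepr*-cKO nerves, against 1351 and 976, and 0.898% and 0.533% of genes in healthy nerves, against 0.174% and 0.119%. DESeq2 size factors and a term for sex gave 51 and 41 genes for genotype in injured nerves at 4 wpc. The causes were not tested. A prior count of 0.5 moved no group level of log2 CPM by more than 0.0328. Depth limited *H2-Oa* and *H2-Eb2*, with few or 0 healthy reads.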

Other observations

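The genes outside the list most like the mean of *H2-DMa* and *H2-DMb1*, by r of deviations over the 39 libraries, were *Gm2a* (0.822), *Olfm1* (0.803) and *Syngr2* (0.796), a comparison chosen after the data were seen. The mean of the dendritic cell markers had r of 0.695 with H2-DM, that of the Schwann cell markers 0.273 and that of the macrophage markers 0.167.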
